A study of Homo sapiens with 9 samples.

Results

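The 3 RNA libraries numbered 1 were set against the 6 numbered 2 or 3, out of 9 libraries in the series, by the number at the end of each label. The cell line was SW620 throughout, wild-type in the labels and derived from a lymph node metastasis of a human colon adenocarcinoma. The cells grew in suspension, in plates coated to prevent attachment, in DMEM/F12 with glucose, insulin, basic FGF and EGF. One library of each number received no drug, one streptomycin (SM) at 120 µM and one dihydrostreptomycin (DSM) at 120 µM, each for 48 h. Streptomycin is an aminoglycoside antibiotic that acts on bacterial ribosomes, and dihydrostreptomycin is its reduced form. Each side of the comparison therefore held all 3 treatments in equal proportion, and treatment was a term in the test. The labels call the replicates biological but do not tell what libraries of the same number have in common. If same-numbered cultures came from 1 starting batch, the comparison is of 1 batch with 2, and the p-values measure the spread between libraries rather than between batches. The number 1 was singled out with earlier results of these data known.

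Total counts lay between 39315662 and 65562227 per library, with 18316 to 19613 genes detected. The 10 most abundant genes held 5.70% to 5.83% of counts in the libraries numbered 1 and 5.41% to 5.55% in the others. Of 28307 genes, 15711 had at least 10 counts in at least 3 libraries and were tested. Levels are given in CPM, the usual depth-scaled count unit, here with TMM scaling of the library totals and with no correction for gene length. All 8 markers listed for the colon epithelial origin of the line (EPCAM, CDH1, KRT8, KRT18, KRT19, CDX2, VIL1, CDH17) were tested. Their summed level was 13549 to 14857 CPM in the libraries numbered 1 and 11305 to 12039 CPM in the others.

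In number 1, 26 genes at 5 CPM or more were called lower by at least 2-fold. Of these, 12 belonged to lists of the integrated stress response and amino acid metabolism. At any level it was 13 of 117 (11.1%), and the lists held 95 of the 15711 tested genes. They were drawn up with earlier results of these data known. The integrated stress response is described first, as background. Kinases that sense amino acid shortage, misfolded protein, viral RNA or haem deficiency phosphorylate the translation factor eIF2. General translation then slows while the transcription factor ATF4 is translated more. ATF4, often paired with a C/EBP protein, binds C/EBP-ATF response elements and raises genes that make, import and charge amino acids, together with secreted factors such as FGF21 and GDF15.

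The C/EBP-ATF response element is commonly written TGATGNAA, where N is any base. It was searched on both strands in the 250 bases before each RefSeq start site (GRCh38.p14), for 11948 of the tested genes. It was present in 1.53% of those promoters and in 12 of the 83 promoters (14.5%) of genes called lower by at least 2-fold in the libraries numbered 1. The shares were 3.85% (4 of 104) for genes called higher by at least 2-fold, 1.68% for all genes called lower and 1.46% for all genes called higher. Over all 27305 promoters, tested or not, it was 3.19%. In the stress response and amino acid lists joined it was 12.5% (9 of 72). Amino acid transporters had it in 0 of 12 promoters and serine and glycine genes in 0 of 3. Of the 12 carriers lower by at least 2-fold, only FGF21, CHAC1 and ASNS are on those lists. The rest, PRSS1, PRSS2 and GPX8 among them, are on none. The windows below are a selection, from 5 genes with large decreases and 3 members of the stress response and tRNA synthetase lists with smaller ones. Other genes also carry the element, among them PPP1R15B, a subunit of an eIF2 phosphatase. Its level gave a log2 fold change of -0.01 (edgeR adjusted p = 0.812). Each window is written 5′ to 3′ on the gene's strand, with the element or its reverse complement in capitals.
CHAC1, chr15:40953252-40953279, plus strand: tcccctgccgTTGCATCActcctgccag
ASNS, chr7:97872459-97872486, minus strand: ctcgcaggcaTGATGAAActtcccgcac
PRSS1, chr7:142749329-142749356, plus strand: atagccaggcTGATGCAAgaccctggga
PRSS2, chr7:142770827-142770854, plus strand: ccaaacatacTGATGCAAgaccatagga
GPX8, chr5:55159972-55159999, plus strand: aaaattataaTTACATCAcaaatacttt
ATF3, chr1:212565206-212565233, plus strand: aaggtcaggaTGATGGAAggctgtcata
AARS1, chr16:70289676-70289703, minus strand: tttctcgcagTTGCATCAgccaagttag
IARS1, chr9:92293698-92293720, minus strand: tttcagcgcgTTGCATCAcctcc
The element lay 201 bases before the start site in CHAC1 and 60 bases before the one used in ASNS. That ASNS start site lies inside the gene's full span (97851677 to 97928441) and not at its outer end. PRSS1 and PRSS2 both carried it 125 bases before their start sites, in the same form, TGATGCAA. Matches of this length are a description of the letters and not of binding.

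The libraries numbered 1 differed broadly from the other 6, mostly by small amounts. Of 15711 tested genes, 5636 (35.9%) differed by edgeR's quasi-likelihood test at a Benjamini-Hochberg adjusted p under 0.05. Of these, 2889 were higher in number 1 (18.4% of tested genes) and 2747 lower (17.5%). These shares are the yardstick for every list count below. The median absolute log2 fold change of called genes was 0.236, and 140 were at least 2-fold higher and 117 at least 2-fold lower. In 2586 tested genes (16.5%) all 3 libraries numbered 1 lay above the other 6, and in 2455 (15.6%) all 3 lay below. Without untreated replicate 1 the count of called genes was 3737.

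**Figure D1:**
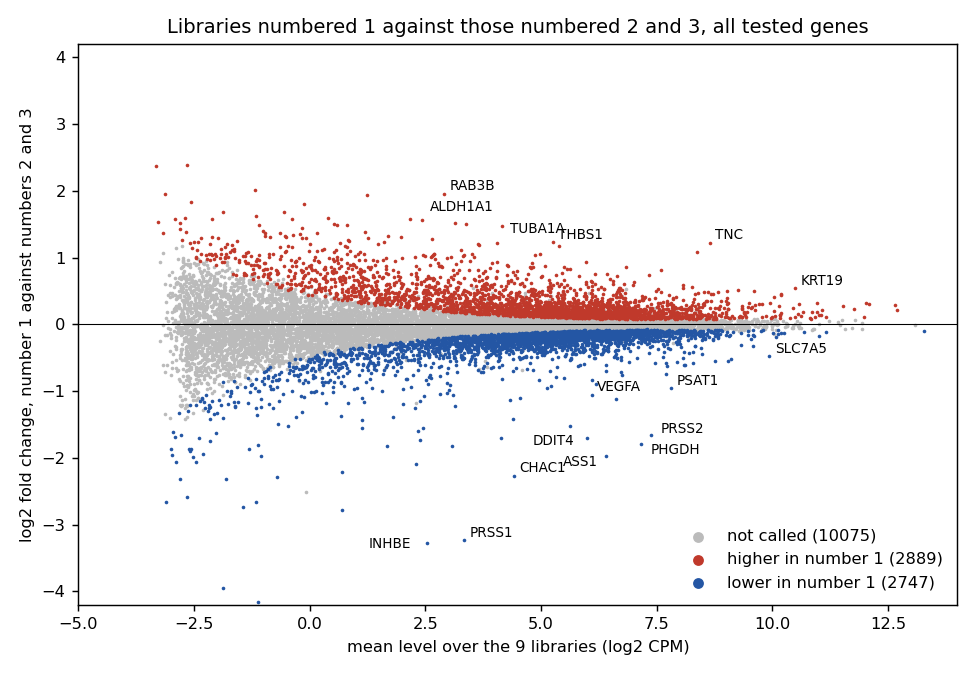
Each point is 1 of 15711 tested genes; the x axis is its mean level over the 9 libraries (log2 CPM) and the y axis the log2 fold change of the libraries numbered 1 against those numbered 2 and 3. Red points are the 2889 genes called higher and blue points the 2747 called lower; 2 genes lie outside the axes, and INHBE, PRSS1 and CHAC1 lie lowest among the genes with a printed name.

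The numbers 2 and 3 differed far less from each other. With 3 libraries against 3 in a fit with each number as a level, number 3 against number 2 gave 579 called genes (3.69%), 293 higher (1.86%) and 286 lower (1.82%), of which 9 were at least 2-fold. The same fit gave 5623 (35.8%) for number 1 against 2 and 5752 (36.6%) for number 1 against 3. These last comparisons share the libraries numbered 1.

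**Figure D2:**
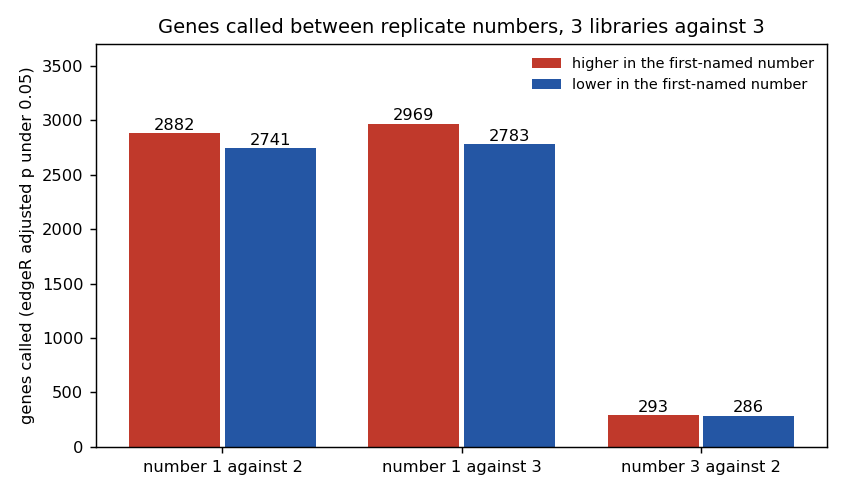
Bars give the number of genes called by edgeR (adjusted p under 0.05) higher (red) or lower (blue) in the first-named replicate number, each with 3 libraries against 3. The comparison of numbers 3 and 2 gave 293 and 286 genes, and the comparisons with number 1 between 2741 and 2969 in each direction.

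Genes for serine synthesis, the start of one-carbon metabolism, were lower in number 1. PHGDH, which catalyses the first step from a glycolytic intermediate (chromosome 1, 119711934 to 119744215), stood at 50.9, 62.4 and 50.6 CPM in the untreated, SM and DSM libraries numbered 1. The other 6 libraries lay between 161 and 220 CPM, with a median of 183. The sides were far apart, and in both the SM libraries were the highest. The fitted log2 fold change was -1.79 (SE 0.04, edgeR adjusted p = 1.36e-18), and PHGDH was 3.45-fold higher in the other libraries. The later enzymes of the pathway moved the same way with smaller sizes. PSAT1, the aminotransferase, stood at 135, 139 and 139 CPM against 225 to 318 CPM (log2 fold change -0.96, SE 0.07, edgeR adjusted p = 1.12e-05). SHMT2, which turns serine into glycine in mitochondria, changed by -0.54 (SE 0.04) and PSPH, the phosphatase of the last step of serine synthesis, by -0.34 (SE 0.04) on the log2 scale. In all, 4 of 5 tested genes of serine and glycine synthesis fell and 0 rose, with a median log2 fold change of -0.54 against -0.00768 over all tested genes.

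**Figure D3:**
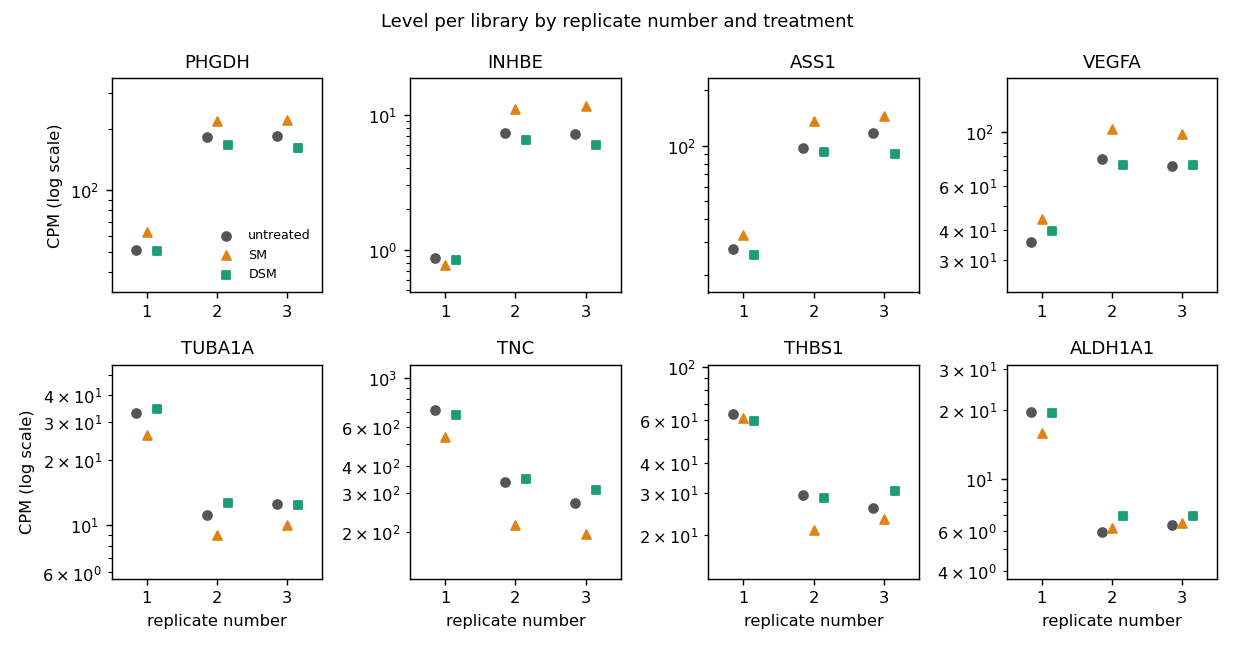
Level in CPM (log axis) of 8 genes in each library, by replicate number on the x axis, with circles for untreated, triangles for SM and squares for DSM. In PHGDH, INHBE, ASS1 and VEGFA the 3 libraries numbered 1 lie below the other 6, and in TUBA1A, TNC, THBS1 and ALDH1A1 above them.

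Folate enzymes that carry the one-carbon units from serine were lower as well. ALDH1L2, the mitochondrial formyltetrahydrofolate dehydrogenase, stood at 1.38, 1.88 and 1.42 CPM against 5.34 to 8.43 CPM in the others. It was 4.24-fold higher in the other libraries (log2 fold change of number 1 -2.08, SE 0.11, edgeR adjusted p = 1.49e-11). MTHFD2, the mitochondrial methylene-folate dehydrogenase, fell by 0.63 (SE 0.05) and MTHFD1L by 0.34 (SE 0.04) on the log2 scale. Of 12 tested folate genes, 8 fell and 2 rose, against 17.5% and 18.4% of all tested genes.

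Genes that make arginine, asparagine, proline and alanine or shunt carbon towards them were also lower. ASS1, which joins citrulline and aspartate in arginine synthesis (chromosome 9, 130444707 to 130501274), stood at 27.5, 32.9 and 25.7 CPM in number 1. In the other 6 it lay between 89.9 and 145 CPM, with a median of 108, so that the sides did not overlap. Its log2 fold change was -1.96 (SE 0.07, edgeR adjusted p = 1.15e-09). ASNS, the asparagine synthetase (chromosome 7, 97851677 to 97928441), held 1.94, 2.16 and 1.98 CPM against 5.38 to 9.01 CPM (log2 fold change -1.74, SE 0.11, edgeR adjusted p = 1.90e-10). GPT2, the mitochondrial alanine aminotransferase, fell by 0.74 (SE 0.04) and PYCR1, the last enzyme of proline synthesis, by 0.57 (SE 0.04). PCK2, the mitochondrial PEP carboxykinase and a known ATF4 target, stood at 20.7, 23.8 and 20.5 CPM against 52.9 to 74.6 CPM (log2 fold change -1.53, SE 0.05, edgeR adjusted p = 1.53e-15). In the list of asparagine, arginine, proline and glutamine synthesis, 9 of 14 tested genes fell and 4 rose.

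Import and charging of amino acids followed in the same direction. SLC1A4, a neutral amino acid transporter, stood at 6.65, 7.97 and 6.42 CPM against 19.5 to 27.0 CPM (log2 fold change -1.69, SE 0.06, edgeR adjusted p = 3.62e-14). The glycine transporter SLC6A9 changed by -1.14 (SE 0.06), the large neutral amino acid transporter SLC43A1 by -0.89 (SE 0.04), the cationic transporter SLC7A1 by -0.57 (SE 0.04) and SLC7A5, the light chain of another large neutral transporter, by -0.48 (SE 0.03). Of 15 tested transporters 7 fell and 2 rose, or 1 without SM replicate 1, and the median was -0.36. SLC7A11, the cystine transporter, was among the rest (-0.36, SE 0.18, adjusted p = 0.183). Among cytosolic aminoacyl-tRNA synthetases, which load amino acids onto tRNA, 12 of 20 fell and 0 rose, with a median of -0.30. The largest changes were those of LARS1 (-0.58, SE 0.04), SARS1, AARS1 (-0.54, SE 0.04), MARS1 and CARS1 (-0.50, SE 0.04), and IARS1 changed by -0.32 (SE 0.03). LARS1 stood at 129, 137 and 132 CPM in number 1 and at 185 to 221 CPM in the others. Of 17 tested mitochondrial synthetases 5 fell and 1 rose, and the count of 5 became 1 without untreated replicate 1 or without SM replicate 1, 2 without untreated replicate 3 or DSM replicate 1 and 3 without SM replicate 2.

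The regulators of the response were lower, by smaller amounts than several of their targets. ATF4 itself (chromosome 22, 39520559 to 39522686) held 412, 422 and 428 CPM in number 1 and 538 to 727 CPM in the other 6. Its log2 fold change was -0.53 (SE 0.06, edgeR adjusted p = 6.58e-05). TRIB3, a pseudokinase that restrains ATF4, changed by -0.60 (SE 0.08), ATF3 by -0.65 (SE 0.11) and CEBPB, a partner of ATF4, by -0.83 (SE 0.11). Several targets moved further. CHAC1, which degrades glutathione, stood at 4.88, 7.03 and 5.83 CPM against 19.5 to 39.8 CPM (log2 fold change -2.27, SE 0.18, edgeR adjusted p = 1.68e-04). DDIT4, an inhibitor of mTORC1, changed by -1.70 (SE 0.14) and SESN2, a leucine sensor that also restrains mTORC1, by -1.42 (SE 0.09). Of 19 tested regulators and direct stress targets 12 fell and 0 rose, with a median of -0.48.

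DDIT3, which encodes CHOP, lay just outside the call. It held 9.94, 10.3 and 10.3 CPM in number 1 and 13.2 to 24.7 CPM in the others, so the sides did not overlap. The log2 fold change was -0.64 (SE 0.20, edgeR adjusted p = 0.0501). The highest value was in SM replicate 2, and without that library the fold change was -0.51 with an adjusted p of 2.79e-05. DDIT3 was also called lower without SM replicate 3, with library totals (adjusted p = 0.0355), without the treatment term, by DESeq2 (adjusted p = 0.00639), by limma voom (adjusted p = 0.00145), with either replicate block and against number 2 or number 3 alone, over a range of adjusted p from 1.33e-05 to 0.0449 in those that called it.

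Of 10 tested genes for secreted products of the response 6 fell, 0 rose and 4 did not pass. INHBE, a subunit of activin E and a hepatokine gene (chromosome 12, 57455307 to 57458025), was at 0.870, 0.771 and 0.845 CPM in number 1. The other libraries lay between 5.94 and 11.6 CPM, and the fold was 9.65 (log2 fold change of number 1 -3.27, SE 0.14, edgeR adjusted p = 4.80e-13). ADM2, a vasodilator peptide of the calcitonin family, changed by -1.82 (SE 0.09). VEGFA, the endothelial growth factor, stood at 35.5, 44.3 and 39.4 CPM against 72.9 to 103 CPM (log2 fold change -1.05, SE 0.05, edgeR adjusted p = 9.96e-13), and STC2 changed by -0.76 (SE 0.06). FGF21 had 0 counts in all 3 libraries numbered 1 and 3 to 15 counts in each of the other 6. Against a floor of 3 counts over the group its mean was at least 9.99-fold lower in number 1, at levels below 1 CPM. GDF15, another secreted product of the response, held 70.2, 89.3 and 69.4 CPM against 55.8 to 85.3 CPM, and the sides overlapped (log2 fold change 0.13, SE 0.13, edgeR adjusted p = 0.511). It was lower in number 3 than in number 2 (-0.34, edgeR adjusted p = 1.34e-05), so that its difference was -0.03 against number 2 alone and 0.31 (adjusted p = 3.63e-06) against number 3 alone. In the fit with each number as a level GDF15 was called higher (0.14, adjusted p = 0.00258). The median of the list was -0.57, the same with FGF21 placed at its bound.

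**Figure D4:**
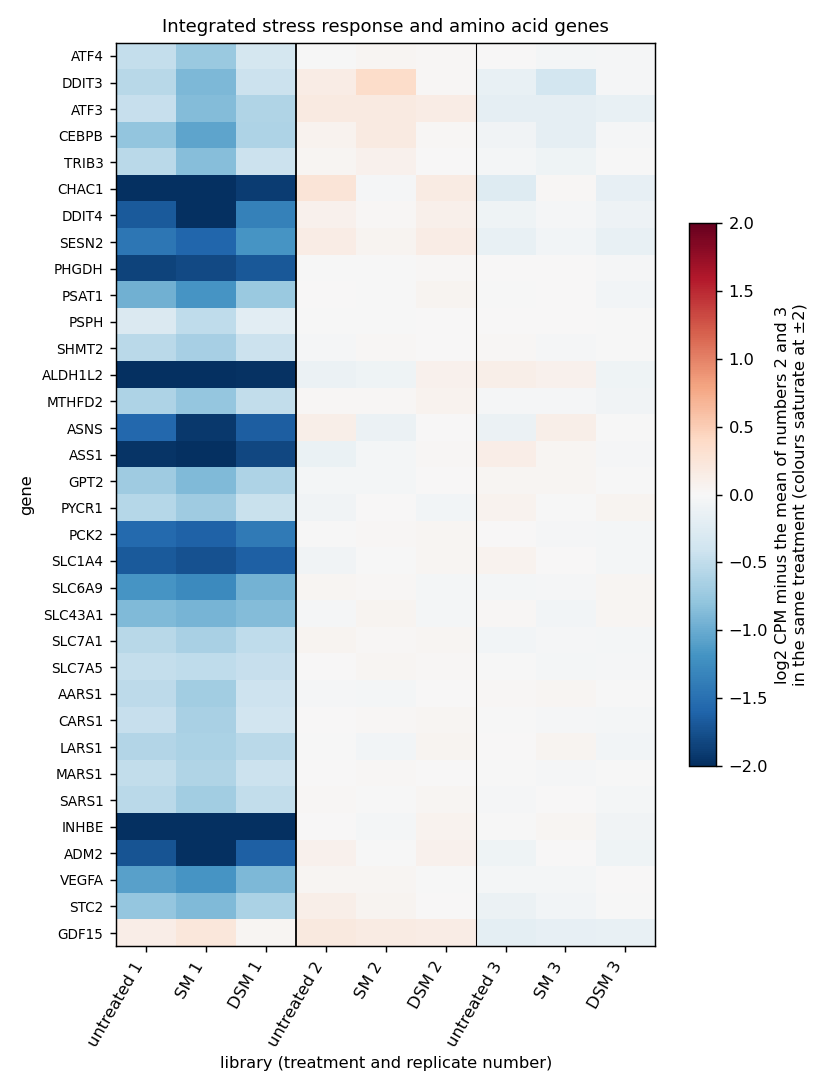
Log2 CPM of 34 integrated stress response and amino acid genes (rows) in the 9 libraries (columns), less the mean of numbers 2 and 3 in the same treatment, so that numbers 2 and 3 mirror each other by construction; colours saturate at a difference of 2. The 3 columns of number 1 are blue in every row but GDF15.

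Joined, the 7 lists of regulators, serine and glycine, folate, asparagine to glutamine, transporters, cytosolic synthetases and secreted factors held 95 tested genes, with the mitochondrial synthetases left out, of which 58 (61.1%) fell and 8 (8.42%) rose, against 17.5% and 18.4% of all tested genes. The lists were drawn up with earlier results of these data known, so these counts are descriptions. The median list differences were larger in the SM libraries (regulators -0.69, against -0.43 untreated and -0.35 with DSM). A test of whether the difference of number 1 depended on the treatment, with 1 library numbered 1 in each treatment, called 0 genes by edgeR. At an unadjusted p under 0.05 the test gave 267 of 15711 genes, fewer than that threshold passes on average when nothing differs. It had 3 residual degrees of freedom. DESeq2 called 1 gene (RPLP2, a ribosomal protein gene, named after its value was seen), with 93 unadjusted. Limma voom called 0, with 294 unadjusted. Of the 5636 called genes 5609 (99.5%) had the same sign in all 3 treatments, which held for 65.0% of all tested genes. The calls were made on these same libraries, so agreement in sign was largely built into the choice of genes.

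Other stress pathways were mixed. Cytosolic heat shock genes were higher, with 7 of 14 up and 0 down. HSPB1, a small heat shock protein, stood at 122, 116 and 119 CPM against 61.7 to 87.3 CPM (log2 fold change 0.68, SE 0.06, edgeR adjusted p = 1.60e-06), and HSPA8, the constitutive chaperone HSC70, rose by 0.28 (SE 0.04). In the list, 4 genes were also higher in number 3 than in number 2. In the endoplasmic reticulum the chaperone HSPA5 (BiP) rose by 0.28 (SE 0.03), while XBP1 and the sensor ERN1 (IRE1) changed by -0.28 (SE 0.04) and -0.59 (SE 0.07). Of 23 tested genes of this list 6 rose and 3 fell, near the 18.4% and 17.5% of all tested genes. Mitochondrial protease LONP1 fell by 0.36 (SE 0.04), and of 11 genes of the mitochondrial unfolded protein response 5 fell and 1 rose, against 17.5% and 18.4% of all tested genes. That 1 became 0 without any 1 library other than SM replicate 2 and DSM replicate 2.

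NRF2 targets, genes of the antioxidant response, fell in 11 of 32 cases and rose in 3, against 17.5% and 18.4% of all tested genes. AKR1C1, an aldo-keto reductase, stood at 31.8, 61.9 and 32.7 CPM in number 1 against 43.6 to 111 CPM, with the SM library the highest of number 1. The log2 fold change at equal treatment was -0.61 (SE 0.06, edgeR adjusted p = 1.56e-05), and without the treatment term the adjusted p was 0.299. The count of 11 became 7 without SM replicate 1, and that of 3 became 1 without untreated replicate 1. Of its members, 7 were lower in number 3 than in number 2.

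Among genes that respond to nutrients, TXNIP, an inhibitor of glucose uptake under MondoA control, stood at 57.7, 59.0 and 52.9 CPM against 70.8 to 79.8 CPM (log2 fold change -0.42, SE 0.04, edgeR adjusted p = 5.95e-08). Its relative ARRDC4 changed by -0.50 (SE 0.08). Hypoxia targets were split, with 5 of 22 higher and 7 lower and a median of -0.00113. VEGFA and STC2 stood on both this list and that of the secreted factors. Of 21 glycolysis genes 9 rose and 3 fell. Over all tested genes 18.4% rose and 17.5% fell. PKM, the last kinase of glycolysis, held 4860, 4767 and 4757 CPM against 3807 to 3938 CPM (log2 fold change 0.31, SE 0.03, edgeR adjusted p = 5.53e-08). SAT1, which acetylates polyamines for export, rose by 0.81 (SE 0.03), and ODC1, which begins their synthesis, fell by 0.22 (SE 0.04).

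Genes of lipid synthesis were higher as a group. Of 20 tested genes of the mevalonate and cholesterol pathway 16 rose and 0 fell, with a median of 0.24, and of 18 genes of fatty acid synthesis and desaturation 15 rose and 0 fell, with a median of 0.18. With library totals in place of TMM, 1 cholesterol gene was called lower. HMGCS1, which makes HMG-CoA for cholesterol synthesis, stood at 411, 314 and 395 CPM in number 1 against 221 to 340 CPM, and the sides overlapped because the SM libraries were lowest in both. At equal treatment the log2 fold change was 0.38 (SE 0.04, edgeR adjusted p = 5.14e-06), and without the treatment term the adjusted p was 0.123. ACAT2, which condenses acetyl-CoA, stood at 200, 169 and 199 CPM against 118 to 164 CPM and rose by 0.38 (SE 0.04, edgeR adjusted p = 5.53e-08). FDFT1, the squalene synthase, rose by 0.35 (SE 0.03). INSIG1, which holds SREBP in the endoplasmic reticulum, rose by 0.41 (SE 0.04).

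Among the fatty acid genes SCD, the stearoyl-CoA desaturase, held 1822, 1657 and 1806 CPM against 1237 to 1490 CPM (log2 fold change 0.31, SE 0.03, edgeR adjusted p = 5.03e-07). ACSL1, which activates long-chain fatty acids, rose by 0.57 (SE 0.04) and FADS2, a desaturase of polyunsaturated fatty acids, by 0.51 (SE 0.05). G0S2, an inhibitor of triglyceride lipase, went the other way, at 4.52, 4.85 and 4.69 CPM against 9.37 to 13.5 CPM (-1.22, SE 0.08). Of 16 sterol sensing and uptake genes 9 rose and 1 fell, and the 9 became 5 without untreated replicate 1. A core sterol element, TCACNCCAC, was searched on either strand in the same 250 bases. It was found in 0 of 15 cholesterol, 0 of 17 fatty acid and 1 of 14 sterol sensing promoters, against 0.803% of all tested promoters. At so low a share, counts of 0 in lists this short tell little. These letters are one form of the element only.

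Genes of DNA replication were lower by small amounts. Of 38 tested genes of the S phase list 29 fell and 0 rose, with a median log2 fold change of -0.15, against 17.5% of all tested genes called lower. The count lay between 24 and 30 when any 1 library was left out. E2F1, the transcription factor of the transition into S phase, stood at 37.3, 36.8 and 37.9 CPM in number 1 and 46.8 to 55.2 CPM in the others. The sides did not overlap (log2 fold change -0.44, SE 0.05, edgeR adjusted p = 2.61e-07). CDC45, part of the replicative helicase, changed by -0.38 (SE 0.04), CDT1, a licensing factor, by -0.28 (SE 0.04) and GINS3 by -0.31 (SE 0.04). MKI67, which cycling cells express in all active phases, held 1108, 1069 and 1141 CPM against 932 to 1110 CPM (0.08, SE 0.03, edgeR adjusted p = 0.0870). Of 38 genes of G2 and mitosis 10 rose and 5 fell, where 18.4% and 17.5% of all tested genes did. The 10 became 4 without SM replicate 1 and 5 without DSM replicate 1, and the 5 became 3 without untreated replicate 1 and 2 without SM replicate 1. CDKN2B, an inhibitor of CDK4 and CDK6, rose by 0.47 (SE 0.05).

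The E2F site, searched as TTTCCCGC or TTTGGCGC on both strands, was present in 13 of 34 (38.2%) promoters of the S phase list, in 2 of 33 (6.06%) of the G2 and mitosis list and in 3.05% of all tested genes. It was in 4.19% of promoters of genes called lower and 2.28% of those called higher. RFC3, TYMS, MCM7 and POLA1, also of the S phase list, carry the site and were not called (log2 fold changes from -0.08 to 0.03). Windows from 3 members of the S phase list that fell are shown, with the site or its reverse complement in capitals. 
E2F1, chr20:33686388-33686415, minus strand: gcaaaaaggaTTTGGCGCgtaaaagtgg
CDT1, chr16:88803744-88803771, plus strand: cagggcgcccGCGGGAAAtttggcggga
PCNA, chr20:5126664-5126691, minus strand: agcgtcagggGCGGGAAAaggcgtgcgt
The site lay 12 bases before the start site in E2F1, 27 in CDT1 and 51 in PCNA, the sliding clamp of the replication fork.

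Other growth lists differed among themselves. Cytosolic ribosomal protein genes were mostly uncalled, with 1 of 32 small subunit genes higher and 2 lower and 2 of 46 large subunit genes higher and 0 lower. Leaving out 1 library gave 0 to 3 higher and 0 to 5 lower in the small subunit and 0 to 7 higher and 0 to 6 lower in the large. Of 21 nucleotide synthesis genes 12 fell and 0 rose, 7 without untreated replicate 1 and 6 without SM replicate 1. CAD, which begins pyrimidine synthesis, changed by -0.20 (SE 0.03), DHODH, a later enzyme of the same pathway, by -0.31 (SE 0.04) and RRM2, a ribonucleotide reductase subunit, by -0.22 (SE 0.03). In ribosome biogenesis 21 of 34 fell and 1 rose. The 21 became 11 without untreated replicate 1 and without SM replicate 1, and the 1 became 0 without untreated replicate 1 or DSM replicate 1. MYC stood at 599, 741 and 610 CPM in number 1 against 707 to 1051 CPM, and the SM library of number 1 lay within the range of the others. At equal treatment MYC changed by -0.32 (SE 0.04, edgeR adjusted p = 4.12e-06), and without the treatment term the adjusted p was 0.168. Its antagonist MXD4 rose by 0.44 (SE 0.05), while MXI1, also an antagonist, changed by -0.68 (SE 0.08). Of 31 tested replication-dependent histone genes 11 rose and 0 fell, or 6 without untreated replicate 1; H1-2 rose by 0.72 (SE 0.08). These transcripts normally lack a poly(A) tail, and the libraries were made with an mRNA kit.

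Extracellular matrix genes were higher, led by 2 matricellular proteins. TNC, tenascin C (chromosome 9, 115019575 to 115118157), stood at 714, 541 and 678 CPM in number 1 and at 197 to 346 CPM in the other 6, with a median of 290. The SM libraries were the lowest on both sides, and the sides did not overlap. The log2 fold change was 1.23 (SE 0.09, edgeR adjusted p = 1.73e-04). THBS1, thrombospondin 1, held 63.8, 61.7 and 59.9 CPM against 21.1 to 30.5 CPM (1.23, SE 0.07, edgeR adjusted p = 1.85e-07). FN1, fibronectin, rose by 0.86 (SE 0.08) and COL1A1 by 0.62 (SE 0.08), both at low levels of under 15 CPM. Of 35 tested matrix and integrin genes 23 rose and 2 fell, with a median of 0.28. The 23 became 15 without SM replicate 1; the 2 became 0 without it and 1 without untreated replicate 1 or DSM replicate 1. In number 3 against number 2, 1 of the same genes was called higher and 11 lower.

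Some genes of the mesenchymal state were higher together with epithelial genes. Of 10 tested mesenchymal genes 6 rose and 0 fell. VIM, vimentin, held 1499, 1320 and 1419 CPM against 929 to 1147 CPM (log2 fold change 0.44, SE 0.05, edgeR adjusted p = 5.19e-06), and LGALS1, galectin 1, rose by 0.74 (SE 0.03) and S100A4 by 0.56 (SE 0.05). Of 25 epithelial junction and keratin genes 15 rose and 3 fell. KRT19 held 1919, 1674 and 1840 CPM against 1145 to 1315 CPM (0.54, SE 0.03, edgeR adjusted p = 3.10e-11), and CDH1, E-cadherin, stood at 344, 324 and 339 CPM against 194 to 277 CPM (0.54, SE 0.07, edgeR adjusted p = 5.22e-04). In neither of them did the sides overlap. Fibroblast markers, which share COL1A1 with the matrix list, summed to 25.3 to 27.1 CPM in number 1 and 12.8 to 19.9 CPM in the others. FAP, COL3A1 and DCN were at 0 counts in all 9 libraries, and 4 of the 10 fibroblast markers were tested. In bulk samples fewer cells of a type and less RNA per cell cannot be told apart.

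Actin and YAP target genes rose with the matrix. Of 23 tested genes 16 rose and 0 fell, with a median of 0.20; with library totals in place of TMM 14 rose and 1 fell. ACTG1, cytoplasmic gamma actin, held 5200, 4791 and 5024 CPM against 3743 to 4200 CPM (0.31, SE 0.03, edgeR adjusted p = 7.70e-08). The tropomyosin TPM4 rose by 0.25 (SE 0.03), the calponin CNN2 by 0.35 (SE 0.03) and LATS2, a kinase that restrains YAP and is itself a target of it, by 0.43 (SE 0.06).

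Among tubulins the change was uneven. TUBA1A, the alpha tubulin best known from neurons (chromosome 12, 49184795 to 49189080), stood at 33.2, 26.1 and 34.7 CPM in number 1 and 8.97 to 12.7 CPM in the others. The lowest of the first was more than 2-fold the highest of the second, and the log2 fold change was 1.47 (SE 0.05, edgeR adjusted p = 3.62e-14). Its neighbours TUBA1B and TUBA1C, on chromosome 12 at 49127782 and 49227926, encode nearly the same protein. TUBA1B held 2087, 1992 and 2085 CPM against 1889 to 2164 CPM (0.01, SE 0.03, edgeR adjusted p = 0.905), with a negative sign under library totals (-0.02). TUBA1C held 890, 869 and 876 CPM against 887 to 915 CPM (-0.04, SE 0.03, edgeR adjusted p = 0.239); with library totals it was called lower (-0.07, adjusted p = 0.0487). Reads that fit more than 1 of these paralogs may have been assigned to either or dropped, so the level of TUBA1A in particular is uncertain. Of the beta tubulins TUBB3 rose by 0.37 (SE 0.03) and TUBB2A by 0.44 (SE 0.07). In all 5 of 14 tested tubulins rose and 0 fell, or 3 without untreated replicate 1, SM replicate 1 or DSM replicate 1; with library totals 4 rose and 2 fell.

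Genes of Wnt feedback were more often higher than lower. Of 20 tested Wnt feedback and stem cell genes 12 rose and 2 fell, with a median of 0.24, and the 2 became 1 without untreated replicate 1, SM replicate 1, SM replicate 2 or DSM replicate 3. DKK1, a secreted Wnt inhibitor, stood at 10.5, 10.1 and 9.98 CPM against 5.11 to 5.98 CPM (log2 fold change 0.87, SE 0.07, edgeR adjusted p = 1.46e-08). LGR5, the R-spondin receptor that marks crypt stem cells, held 53.7, 55.9 and 56.7 CPM against 39.5 to 51.9 CPM (0.28, SE 0.05, edgeR adjusted p = 2.33e-04). ALDH1A1, a retinaldehyde dehydrogenase used as a stem cell marker in colon cancer, stood at 19.6, 15.9 and 19.4 CPM against 5.93 to 6.93 CPM (2.84-fold, edgeR adjusted p = 9.78e-13). CD24, a surface glycoprotein, rose by 0.55 (SE 0.04). Of 12 listed surface and stem markers 8 rose and 1 fell. The 8 became 3 without untreated replicate 1 or SM replicate 1 and 5 without SM replicate 3. The 1 became 2 without SM replicate 3 and 0 without untreated replicate 2, SM replicate 1, SM replicate 2 or any 1 DSM library. Of 16 tested genes of secretory and absorptive lineages 10 rose and 2 fell. AGR2, a protein disulphide isomerase of secretory cells, rose by 0.81 (SE 0.07). The 2 that fell, the neuroendocrine genes SYP (-0.32, SE 0.10) and CHGB (-0.25, SE 0.08), became 1 without untreated replicate 1, untreated replicate 3 or DSM replicate 3 and 0 without SM replicate 1 or DSM replicate 1.

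Of the signalling lists, TGF-beta and BMP genes rose in 10 of 22 cases and fell in 1, INHBE. BMP4, a secreted ligand, held 241, 225 and 251 CPM against 150 to 188 CPM (0.49, SE 0.03, edgeR adjusted p = 2.67e-10), and its target ID2 rose by 0.48 (SE 0.06). Genes of ERK feedback rose in 5 of 19 cases and fell in 1, where 18.4% and 17.5% of all tested genes did. The 5 became 3 without SM replicate 1, and the 1 became 2 without untreated replicate 3, SM replicate 3 or DSM replicate 3 and 3 without DSM replicate 2. PHLDA1, an ERK-induced gene, held 1311, 1185 and 1289 CPM against 865 to 1027 CPM (0.41, SE 0.03, edgeR adjusted p = 3.29e-09). Here numbers 2 and 3 differed as well, with 11 of the 19 ERK genes and 13 of 22 immediate early genes lower in number 3 than in number 2. Antigen presentation genes were lower in 6 of 15 cases and higher in 1, or in 0 without untreated replicate 1 or SM replicate 1. PSMB8, an immunoproteasome subunit, changed by -0.76 (SE 0.10) and TAP2, a peptide transporter, by -0.42 (SE 0.04).

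**Figure D5:**
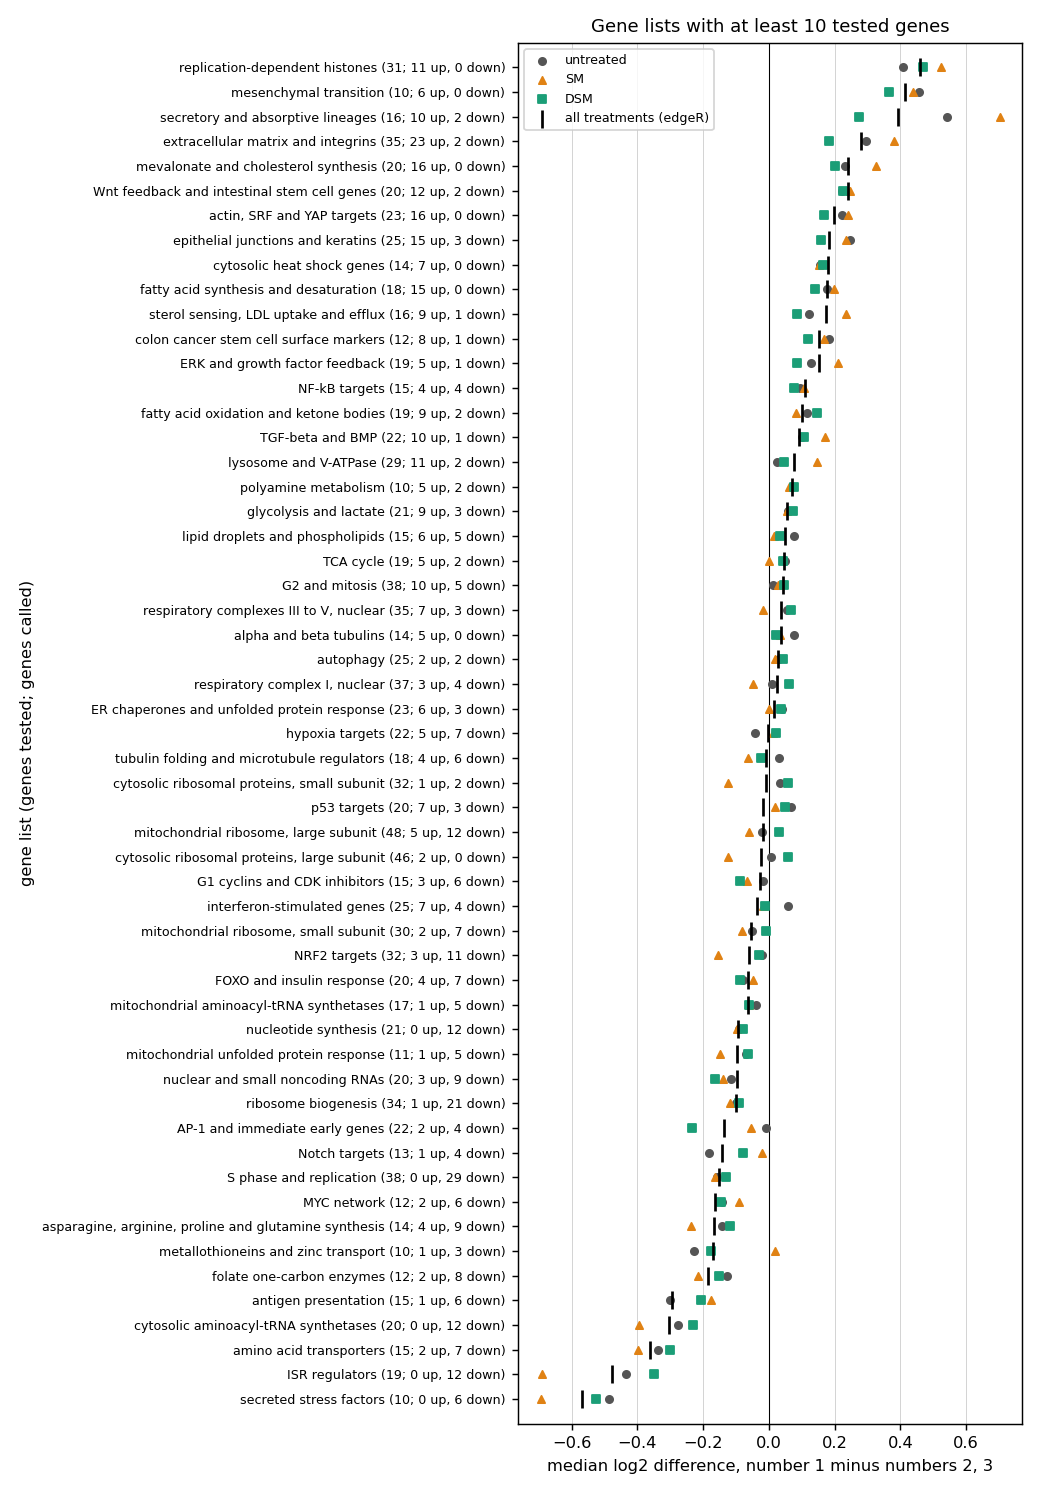
For each gene list with at least 10 tested genes, the vertical bar is the median log2 fold change of number 1 against numbers 2 and 3, and the symbols are the median differences within untreated (circle), SM (triangle) and DSM (square) libraries. Labels give the genes tested and called; secreted stress factors lie lowest at -0.57 and replication-dependent histones highest at 0.46.

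Several of the largest differences lay outside these lists. The trypsinogen genes PRSS1 and PRSS2 lie near each other on chromosome 7, from 142749472 and from 142770970. PRSS1 stood at 1.48, 1.79 and 1.37 CPM in number 1 against 11.6 to 17.6 CPM, and the log2 fold change was -3.23 (SE 0.21, edgeR adjusted p = 1.16e-05). PRSS2 stood at 69.2, 71.2 and 65.5 CPM against 187 to 242 CPM (-1.65, SE 0.14, edgeR adjusted p = 5.13e-04). Both were far below the others in all 3 treatments, and the element shown for them above has the same form and distance in each. They are close paralogs, and which of them received a shared read is unknown. Both also differed between the other numbers, by 0.46 and 0.35 on the log2 scale in number 3 against number 2.

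RAB3B, a small GTPase of vesicle release, had the highest fold among named genes that rose, at 14.75, 14.54 and 15.02 CPM against 2.89 to 4.87 CPM (1.96, SE 0.09, edgeR adjusted p = 9.96e-13). FGA, the fibrinogen alpha chain, rose by 1.57 (SE 0.10), the urea transporter SLC14A1 by 1.56 (SE 0.10), CACNG4, an auxiliary subunit of calcium channels and AMPA receptors, by 1.52 (SE 0.07) and IL7R, the interleukin 7 receptor, by 1.31 (SE 0.16). HYAL1, a hyaluronidase, rose by 1.28 (SE 0.12), PRSS23, a serine protease, by 1.21 (SE 0.05) and VWA5B2 by 1.33 (SE 0.16). VWA5B2 was also higher in number 3 than in number 2, by 0.63. GPX8, a peroxidase of the endoplasmic reticulum, was at 2.44, 1.77 and 2.21 CPM in number 1 against 5.69 to 7.85 CPM and changed by -1.59 (SE 0.12).

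Markers of other cells were summed in the same way. Fibroblast, endothelial and neural and muscle markers were higher in number 1, with no overlap of the sums, while the ranges of leukocyte and erythroid markers overlapped. Summed levels were 6.54 to 7.05 CPM in number 1 and 4.82 to 6.13 CPM in the others for endothelial markers, 21.5 to 23.8 CPM and 22.7 to 29.6 CPM for leukocyte markers, and 0.486 to 0.639 CPM and 0.405 to 0.890 CPM for erythroid markers, of which ALAS2 and AHSP were at 0 counts throughout. Neural and muscle markers summed to 187 to 201 CPM and 137 to 166 CPM, almost all of it SYT1, a synaptic vesicle protein (0.42, SE 0.05). Fold changes were weakly related to exonic length (Spearman's rho 0.0979 across 14782 genes, which are not independent). Among 5 classes by length, the median log2 fold change was -0.03 in the shortest genes and 0.03 in the longest. Of 20 nuclear and small noncoding RNAs 9 fell and 3 rose, against 17.5% and 18.4% of all tested genes. The 3 became 5 without SM replicate 3. NEAT1, a nuclear RNA, changed by -0.60 (SE 0.07), GAS5 by -0.51 (SE 0.05) and RN7SL1, the RNA of the signal recognition particle, by 0.59 (SE 0.10). The part of marker levels, these RNAs and length in the results above was not tested.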

How the data were processed

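RNA was sequenced from 9 SW620 cultures in 3 treatments of 3 replicates. Per the labels' protocols, TRIzol was used for RNA and a NuGEN mRNA-seq kit for the libraries. Tools listed in the submitters' processing notes are TopHat2 2.1.1 and featureCounts 2.0.0 with hg38, and also DESeq2 1.26.0, cutadapt 3.4, bcl2fastq 2.20.0.422 and FastQC 0.11.9. For strand and multi-mapping no setting is named there. The values tested were the raw counts per gene that the authors deposited.

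The fits used edgeR 4.0.16 under R 4.3.3 (TMM, robust quasi-likelihood, two-sided, Benjamini-Hochberg at 0.05 over all tested genes). The terms were treatment and number 1 against the rest. Further fits used the number as 3 levels and the interaction with treatment. Log2 CPM used a prior count of 2. Coordinates and promoters came from RefSeq, GRCh38.p14.

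The comparison, 64 gene lists and the members were chosen with earlier results of these data known. Named genes are the 12 largest called changes per direction at 5 CPM or more whose libraries did not overlap, up to 5 called members of each list, and 21 fixed names. MTHFD1L, FGF21, SLC7A11, PCNA, IARS1, PPP1R15B, RPLP2, RFC3, TYMS, MCM7 and POLA1 were named after their values were seen. Alternatives were other scalings, filters, tools (DESeq2 1.42.0, limma 3.58.1 voom), no robust estimation, no treatment term, a replicate block, thinning, number 2 or number 3 alone as reference, and leaving out each library.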

Additional observations from a re-analysis of the deposited data

Results flagged for a closer look

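Among 293 named genes, 11 (3.75%) had 1 library far from the rest of the 6 libraries numbered 2 or 3 by Dixon's criterion at 95%, which chance meets in about 1 in 20 groups. Of the 11, 9 were in SM replicate 2, whose total count was the smallest, and 2 in SM replicate 3. The 6 libraries span 3 treatments, so an SM value can stand apart with its treatment. In SM replicate 2 the highest values were those of DDIT3 (24.7 CPM, others 13.2 to 16.3), DHODH (54.4 CPM, others 50.2 to 51.7), KLF4 (17.1 CPM, others 13.3 to 14.7), RRP9 (124 CPM, others 106 to 112), ECI1 (45.2 CPM, others 33.9 to 37.9), RRP12 (209 CPM, others 187 to 195) and MAFG (142 CPM, others 116 to 124). The lowest values in the same library were those of DLD (67.2 CPM, others 74.3 to 76.8) and AURKA (77.9 CPM, others 85.5 to 88.0). SM replicate 3 was highest in ARRDC4 (10.1 CPM, others 7.42 to 8.13) and lowest in CDKN1C (16.2 CPM, others 20.4 to 22.7).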

How the results depend on the processing

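Of 5636 called genes, 0 changed sign under any alternative, and counts in settings that kept all libraries lay between 5137 and 6562. The replicate block with the number as 3 levels called 6562 genes, with all 5636 among them. With the number as a random block, chosen after the data were seen because same-numbered libraries may share a source, 5137 were called, 5087 of them shared, at a consensus correlation of 0.0681. The libraries numbered 1 form 1 block that coincides with the tested term. Neither block run can therefore account for a source that these libraries share. Library totals in place of TMM gave 5808, of which 41.4% were higher against 51.3%, and shifted the median over all genes to -0.03. Leaving out 1 library gave 3737 to 5672 called genes (higher 1977 to 2901, lower 1760 to 2771), the fewest without untreated replicate 1 (3737) and without SM replicate 1 (3787; lower 1774), where 2 libraries numbered 1 remained. The treatment interaction gave 8 genes with no filter on low counts and 1 with the DESeq2 test, against 0. Uncalled genes that turned direction were TUBA1B (library totals -0.0184, number 3 alone -0.0367, leaving out 1 library -0.0124 to 0.0293), HBA1 (leaving out 1 library -0.261 to 0.0800), SLC4A1 (number 2 alone 0.104) and GDF15 (number 2 alone -0.0328).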
